A study of Bos taurus with 3 samples.

Results

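The keratin genes KRT5, KRT14, KRT15, KRT4, KRT6A and KRT17 are described in epithelial cells of the newborn bovine rumen. They were taken as the 6 rows of the count matrices with these symbols (ENSBTAG00000038384, ENSBTAG00000007583, ENSBTAG00000004903, ENSBTAG00000012034, ENSBTAG00000039425 and ENSBTAG00000006806, in that order), out of 27270 genes. Rumen tissue of 3 newborn dairy calves (1 day after birth), freed of its outer muscle, was dissociated with trypsin and a mix of enzymes and sequenced as 1 droplet library per calf. All samples belonged to 1 group without treatment, so no conditions were compared. The adult samples of the study were not analysed here. The questions asked were how high each keratin stood, in which share of cells it was found, and which keratins were found together.

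Keratins are the intermediate filament proteins of epithelial cells, and each filament is built from pairs of an acidic type I and a basic type II chain. In stratified squamous epithelia, such as the lining of the rumen, KRT5 (type II) with KRT14 (type I) forms the network of the basal layer, where KRT15 is a further type I keratin. KRT4 (type II) belongs to the suprabasal layers of internal stratified epithelia such as the mouth and oesophagus, and KRT6A (type II) and KRT17 (type I) are known from wounded, hyperproliferative and appendage epithelium.

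A barcode was taken as an epithelial cell when KRT5, KRT14 and KRT15 together made up at least 10 of 10000 unique molecular identifiers (UMIs, 1 per captured transcript), when it held no UMI of PTPRC, PECAM1 or COL3A1 (leukocyte, endothelial and fibroblast genes), and when it had 500 to 4000 detected genes. After filters on mitochondrial UMIs and doublets, 4456, 8354 and 7464 cells of calves 1, 2 and 3 met this rule, or 20274 of 24042 cells kept, with median depths of 10213.5, 6698 and 7940 UMIs. Because the gate used KRT5, KRT14 and KRT15, their high levels in these cells are no finding. Only 43, 60 and 63 gated cells of the 3 calves lay just inside the limit, between 10 and 20 per 10000, and 30, 88 and 112 barcodes lay just outside it, between 5 and 10. A second gate without any keratin (at least 2 UMIs over EPCAM, CDH1, PERP, SFN and DSP) took 4500, 8379 and 7339 cells and was used to check what the keratin gate fixes.

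The gated cells carried epithelial markers. The 6 of them (EPCAM, CDH1, PERP, SFN, DSP and TP63) summed to between 17.5 and 24.9 UMIs per 10000 in the 3 calves, with none at 0. Immune markers summed to at most 0.507, endothelial markers to at most 0.126, and mural, melanocyte, glial and red cell markers to less, while PTPRC, PECAM1 and COL3A1 were at 0 by the rule. Fibroblast markers summed to 2.49 to 4.02 UMIs per 10000, nearly all of it DCN. The libraries shared 21 to 37 barcode sequences in each pair of calves.

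KRT15 was the most abundant of the 6 keratins in every calf, KRT5 came next, and KRT6A was last. Each captured transcript gives 1 UMI at its 3′ end, so that levels of different genes are compared as transcripts per 10000 UMIs without a length term. KRT15, the type I chain of the basal layer, reached 113, 125 and 101 UMIs per 10000 in calves 1, 2 and 3, a mean of 113 ± 12.1 (SD, n = 3 calves). KRT5, the basal type II chain, reached 52.2, 48.7 and 41.8, a mean of 47.6 ± 5.30. These genes varied least between calves, with the highest calf 1.24 and 1.25 times the lowest.

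KRT14, the classical partner of KRT5, was lower than KRT15 in every calf. It reached 11.9, 17.5 and 13.2 UMIs per 10000, a mean of 14.2 ± 2.96 (SD, n = 3). The suprabasal keratin KRT4 stood at 16.5, 13.9 and 2.03 UMIs per 10000, a mean of 10.8 ± 7.71. Calf 3 was the low one for KRT4, and the highest calf had 8.09 times its level.

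The wound-associated keratins were the lowest, and calf 2 was the high one for both. KRT17 stood at 2.21, 6.52 and 2.92 UMIs per 10000, a mean of 3.88 ± 2.31 (SD, n = 3). KRT6A stood at 0.327, 2.00 and 0.342, a mean of 0.891 ± 0.964, so that its SD was larger than its mean. The levels of KRT15, KRT5 and KRT14 did not overlap between genes over the 3 calves, nor did those of KRT17 and KRT6A. KRT4 had rank 3 in calf 1, rank 4 in calf 2 and rank 5 in calf 3, and its range over calves overlapped those of its neighbours KRT14 and KRT17, so that their order was not fixed beyond the spread between calves.

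**Figure D1:**
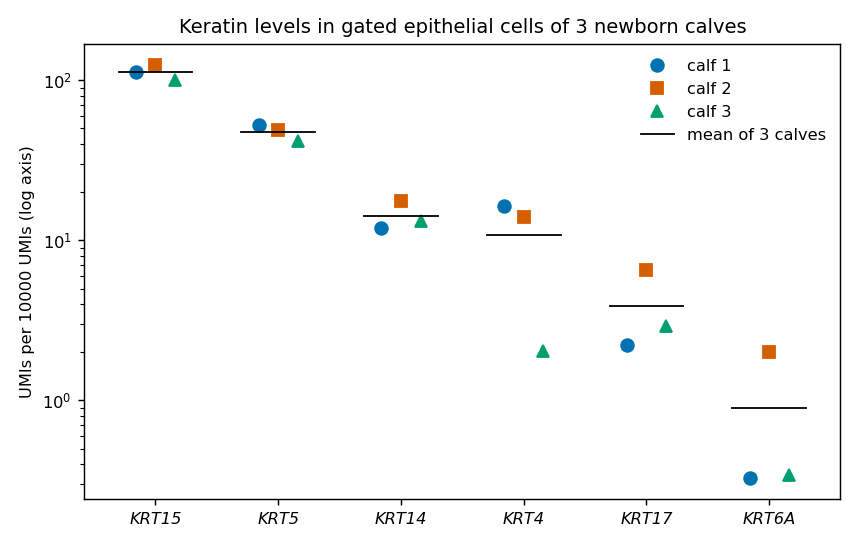
Levels of the 6 keratins in gated epithelial cells, in UMIs per 10000 UMIs on a log axis; each point is 1 calf and each bar the mean of 3 calves. KRT15 and KRT5 lie close together over the calves, whereas KRT4 falls to 2.03 in calf 3 and KRT6A and KRT17 are highest in calf 2.

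KRT5 and KRT15 were found in nearly every epithelial cell, KRT14 and KRT4 in many, and KRT17 and KRT6A in few. To compare cells at equal depth, the counts of every cell with at least 2000 UMIs were thinned at random to 2000; 140, 240 and 192 gated cells of the 3 calves were shallower and left out. KRT15 was then present in 99.4%, 99.7% and 99.7% of cells of calves 1, 2 and 3, and KRT5 in 98.3%, 98.4% and 99.3%. KRT14 was present in 60.3% of cells (exact Clopper-Pearson 95% confidence interval 58.9 to 61.8), 46.9% (45.8 to 48.0) and 64.3% (63.2 to 65.4), a mean of 57.2% ± 9.13 (SD, n = 3). Calf 2 therefore had the highest level of KRT14 and the smallest share of cells with it, beyond counting error.

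KRT4 was present in 58.3% (56.8 to 59.8), 45.8% (44.7 to 46.9) and 17.0% (16.1 to 17.9) of thinned cells, a mean of 40.4% ± 21.2, with calf 3 again the low one. KRT17 was present in 18.2% (17.0 to 19.4), 24.0% (23.1 to 24.99) and 23.0% (22.0 to 24.0), a mean of 21.7% ± 3.12. KRT6A was present in 3.01% (2.52 to 3.57), 8.997% (8.38 to 9.64) and 3.64% (3.23 to 4.10), a mean of 5.22% ± 3.29. Calf 2 stood apart for KRT6A, whereas its share of KRT17 cells was close to that of calf 3 although its level was higher. Without thinning the mean shares were 99.9% for KRT15, 99.4% for KRT5, 78.1% for KRT14, 63.1% for KRT4, 41.0% for KRT17 and 16.1% for KRT6A. The intervals cover counting error only.

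Free RNA can give UMIs to any barcode of a droplet library, and keratin UMIs were also found in barcodes of other cell types. Barcodes with at least 2 PTPRC UMIs (7, 21 and 288 in the 3 calves), with at least 2 PECAM1 UMIs (50, 368 and 462) or with at least 10 COL3A1 UMIs per 10000 (17, 293 and 313), each without the genes that mark the other types, served as the background. Their median depths were 5654 to 6414, 4158.5 to 5224 and 1892 to 2398 UMIs. After thinning, KRT15 was present in 54.97% of the PTPRC-positive, 56.8% of the PECAM1-positive and 65.2% of the COL3A1-positive barcodes on average over calves, and KRT5 in 35.1%, 35.4% and 48.6%. For KRT14 the same shares were 8.62%, 12.0% and 24.7%, and for KRT4 they were 5.51%, 10.3% and 16.8%. For KRT17 they were 1.37%, 6.02% and 6.002%, and for KRT6A 0.373%, 1.97% and 2.08%.

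In each calf, the share of epithelial cells exceeded the background share of every class for all 6 keratins. The background of calf 1 rested on 5, 48 and 12 thinned barcodes, none of which had KRT6A. In calf 2, 8 of 128 thinned COL3A1-positive barcodes had KRT6A (6.25%, interval 2.74 to 11.9) against 8.997% of epithelial cells, which is within counting error. In the same calf the summed level of KRT6A was 4.94 UMIs per 10000 in COL3A1-positive and 3.32 in PECAM1-positive barcodes against 2.00 in epithelial cells. KRT14 in calf 2 was likewise at 9.15 per 10000 in PECAM1-positive barcodes, against 0.436 and 0.470 in calves 1 and 3. The share of KRT6A cells in calf 2 was thus not told apart from this background. Nor was that of calf 1 (3.01%), since 5, 48 and 12 barcodes are too few to exclude so small a share. The summed background level of KRT17 varied widely. Its mean was 2.11 ± 3.39 UMIs per 10000 in PECAM1-positive and 2.16 ± 3.23 in COL3A1-positive barcodes (SD, n = 3). Against 3.88 ± 2.31 in epithelial cells, this level was not told apart from the background. Averaged over PECAM1-positive barcodes instead of summed, the means were 0.597 for KRT17, 1.11 for KRT14 and 0.267 for KRT6A. The summed means were 2.11, 3.35 and 1.12, so that barcodes with more UMIs raised the sums.

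**Figure D2:**
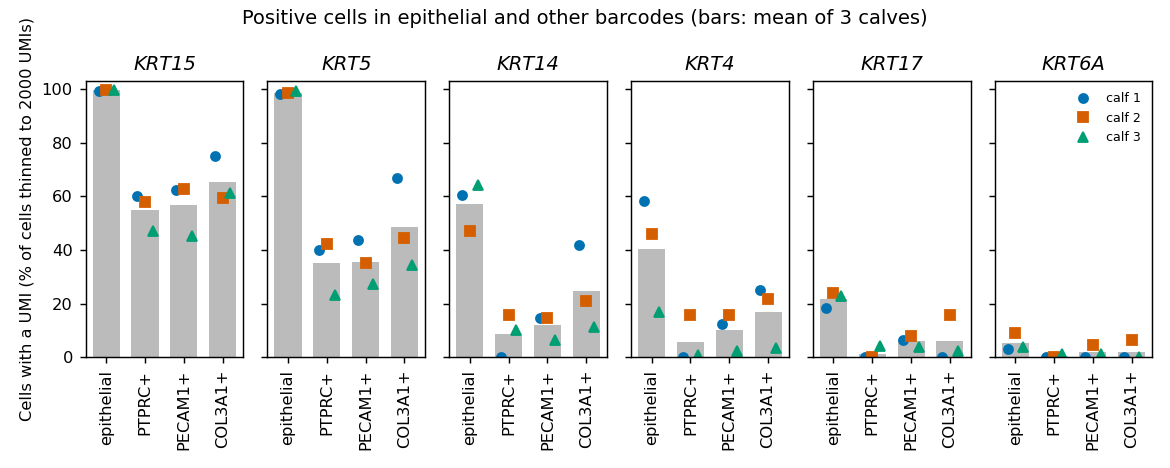
Share of cells with at least 1 UMI of each keratin after thinning to 2000 UMIs, in gated epithelial cells and in PTPRC-positive, PECAM1-positive and COL3A1-positive barcodes; grey bars are means of 3 calves and points are calves. All 6 keratins are found more often in epithelial cells, by a narrow margin for KRT6A in calf 2 and against few background barcodes in calf 1.

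How the UMIs of a keratin were spread over cells differed between the genes. The Fano factor, the variance over the mean of the thinned counts, was 2.77, 4.82 and 2.13 for KRT5 and 4.91, 5.20 and 3.98 for KRT15 in calves 1, 2 and 3. For KRT14 it was 4.68, 14.5 and 4.30. The 10% of cells with the most KRT14 held 45.5%, 65.6% and 42.4% of its UMIs, so that in calf 2 its transcripts sat in fewer cells. In that calf 702 of 8114 thinned cells (8.65%) had at least 10 KRT14 UMIs, against 3.89% and 4.21% of cells in calves 1 and 3.

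KRT4 was more uneven than the basal keratins in every calf, with Fano factors of 11.6, 24.2 and 6.01, and the top 10% of cells held 55.1%, 71.98% and 81.0% of its UMIs. KRT17 gave Fano factors of 8.66, 13.6 and 4.25. KRT6A gave 5.35, 18.2 and 3.96, and 1 or 2 UMIs were all that most of its positive cells had: such cells were 2.92%, 7.37% and 3.45% of all thinned cells. At least 10 KRT6A UMIs were found in 3, 37 and 3 cells. Between 39.9% and 48.2% of cells of a calf had a UMI of exactly 3 of the 6 keratins, and 20, 144 and 13 cells had all 6.

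Together the 6 keratins made up 196, 214 and 161 UMIs per 10000 in calves 1, 2 and 3, and 96.0%, 98.2% and 98.7% of all UMIs of the 50 rows with a keratin symbol. The type II members (KRT5, KRT4 and KRT6A) had 0.544, 0.434 and 0.377 times as many UMIs as the type I members (KRT14, KRT15 and KRT17). KRT13, the known type I partner of KRT4, was not analysed here, so that this ratio and the share of keratin UMIs do not count it. KRT5 exceeded KRT14 by 4.40, 2.78 and 3.17 times, and KRT15 exceeded KRT14 by 9.50, 7.14 and 7.65 times.

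Of the other 44 keratin rows, 12 were detected in at least 1% of gated cells. KRT19, a type I keratin of simple and basal epithelium, was the highest at 5.48, 1.05 and 0.627 UMIs per 10000, followed by KRT7 (a type II keratin of simple epithelium) at 1.25, 0.694 and 0.574. KRT10, the suprabasal type I keratin of the epidermis, stood at 0.349, 0.338 and 0.283, well below KRT4 in every calf, and its epidermal partner KRT1 at 0.000206 in calf 1 and at 0 in the others. KRT6B, a close copy of KRT6A, stood at 0.0391, 0.340 and 0.0472, and KRT16, a close copy of KRT14 and KRT17, at 0.000617, 0.00171 and 0.000905. KRT18, KRT8, KRT78, KRT42, KRT80, KRT23, KRT36 and KRT9 each had mean levels of at most 0.287. In RefSeq's gene order (ARS-UCD2.0, which is not the build of the files, so that no coordinates are given) KRT6A lies between KRT5 and KRT6B, KRT17 between KRT16 and KRT42, KRT14 between KRT9 and KRT16, KRT15 between KRT13 and KRT19, and KRT4 between KRT79 and KRT3. How reads shared by KRT6A and KRT6B, or by KRT14, KRT16, KRT17 and KRT42, were divided in the counting was not tested, so that these values are uncertain to that extent.

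Among the 15 pairs, KRT5 went most closely with KRT15 and KRT14, KRT15 went with KRT4, and KRT14 went with KRT17. The Spearman correlation over thinned cells is given within each calf as a description; the cells of a calf share a library and the gate. For KRT5 and KRT15 it was 0.39, 0.38 and 0.30 in calves 1, 2 and 3, and 0.37 on average under the gate without keratins. For KRT5 and KRT14 it was 0.29, 0.49 and 0.17. KRT14 and KRT15, the type I chains of the basal layer, gave -0.05, 0.04 and -0.19, so that they did not rise together. Both genes enter the sum that sets the gate.

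KRT15 and KRT4 gave 0.31, 0.31 and 0.18, and under the gate without keratins the mean was 0.22. KRT14 and KRT17 gave 0.17, 0.30 and 0.17, and both genes were found in 565, 1269 and 1261 cells, which is 1.19, 1.39 and 1.17 times the number that their separate shares would give. KRT15 and KRT17 gave -0.16, -0.08 and -0.17. The negative means of KRT14 with KRT15 and of KRT15 with KRT17 turned positive (0.25 and 0.06) without thinning, when cells of unequal depth were compared. The sparse pair KRT6A and KRT17 was found together in 56, 377 and 107 cells. This was 2.37, 2.15 and 1.76 times the number from separate shares, the largest such ratio among the 15 pairs in each calf. The ratio cannot exceed 1 over the larger share of a pair. Pairs with KRT5 or KRT15, found in nearly every cell, therefore cannot rise far above 1, so that the rank follows partly from sparseness. KRT14 and KRT6A were found together 1.12, 1.38 and 1.14 times as often as from separate shares. KRT4 stood nearer to 1 in most calves: it was found with KRT17 0.931, 0.978 and 0.869 times, and with KRT6A 0.950, 1.09 and 1.33 times, as often as from separate shares.

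**Figure D3:**
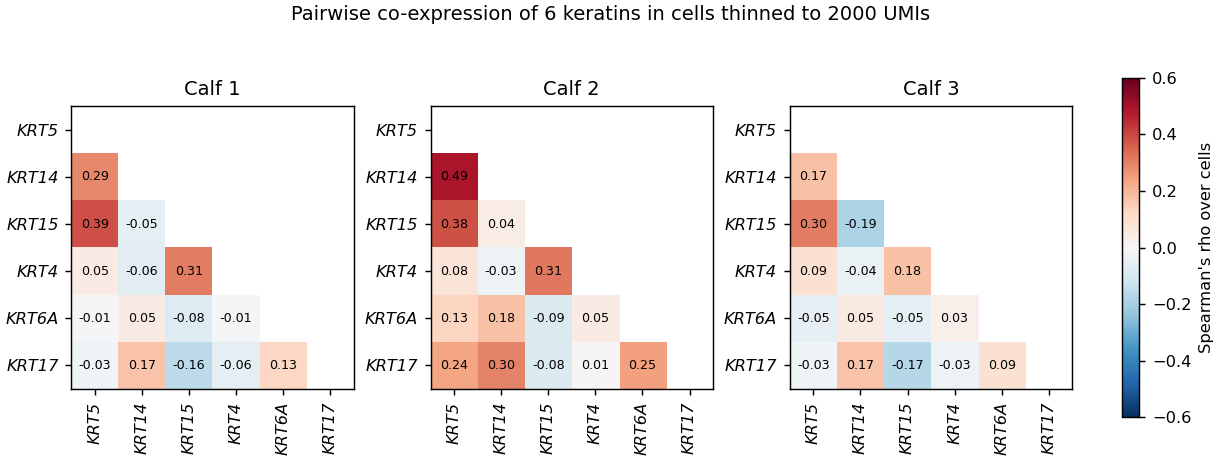
Spearman correlation over cells thinned to 2000 UMIs for each of the 15 pairs, with 1 panel per calf (4316, 8114 and 7272 cells). KRT5 with KRT15 and with KRT14, and KRT15 with KRT4, are positive in all calves; KRT15 with KRT17 is negative in all calves.

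Along a count of differentiation genes that holds no keratin, KRT4, KRT17 and KRT6A rose and KRT5 and KRT15 fell. The list (KRTDAP, SBSN, A2ML1, SPINK5, CNFN, LYPD3, DMKN, CALML5, TGM1, TGM3, IVL and DSG1) holds genes of keratinocyte differentiation and of the cornified envelope. Cells were binned by their list UMIs per 2000 under the gate without keratins, since the keratin gate removes cells that have lost the basal keratins. In calf 2, from 0 through 1, 2 to 4, 5 to 19 and at least 20 list UMIs, KRT4 stood at 6.18, 13.8, 47.2, 164 and 309 UMIs per 10000 over 6644, 1015, 276, 136 and 107 cells. KRT5 stood at 47.2, 60.1, 61.4, 17.2 and 3.45 in the same bins, and KRT15 at 126, 139, 122, 47.0 and 7.59. Calves 1 and 3 had the same course for KRT4, from 10.8 to 228 and from 1.47 to 169, although the last bin held 65 cells in calf 1 and only 3 in calf 3, where the bin before it (22 cells) had 85.7.

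KRT14 had no such single course. It stood at 15.0 UMIs per 10000 in the lowest and at 37.0 in the middle bin of calf 2 and then at 14.6 and 20.6, while in calf 1 it ended at 1.56. KRT17 went from 1.44, 3.99 and 2.44 in the lowest bin to 23.0, 44.0 and 54.8 in the highest, and KRT6A from 0.147, 0.607 and 0.188 to 6.20, 35.8 and 44.9, in calves 1, 2 and 3. In calf 3, KRT17 was at 24.3 in the bin of 80 cells with 2 to 4 list UMIs and at 10.2 in the bin of 22 cells after it. The highest levels of KRT4 thus lay in cells with the fewest basal keratins.

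**Figure D4:**
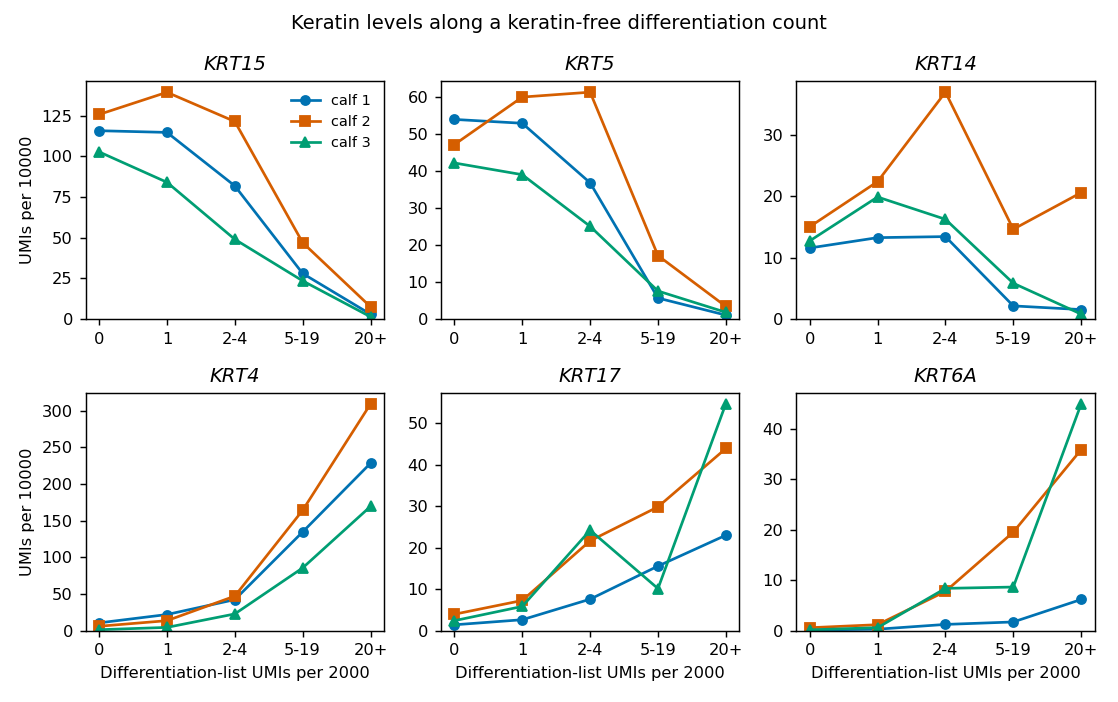
Keratin levels (UMIs per 10000) in cells of the gate without keratins, binned by the UMIs of 12 differentiation genes per 2000 UMIs; each line is 1 calf. KRT5 and KRT15 fall to 3.45 and 7.59 in the highest bin of calf 2 while KRT4 reaches 309; the highest bin of calf 3 holds 3 cells.

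Cells that passed the gate without keratins and failed the keratin gate numbered 100, 108 and 33. Their KRT4 level was 186, 304 and 77.8 UMIs per 10000, and KRT4 was found in 100%, 96.3% and 72.7% of them. KRT5 was at 0.926, 1.05 and 1.94 and KRT15 at 2.22, 2.70 and 2.26 in these cells, so that the keratin gate leaves out the cells richest in KRT4. KRT17 stood at 20.2, 24.1 and 32.5 and KRT6A at 2.63, 18.2 and 14.3 there. The mean level of KRT4 over calves was 14.8 UMIs per 10000 under the gate without keratins against 10.8 under the keratin gate.

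For tests over the calves, the raw counts of gated cells were summed per calf in a high and a low class, and the 6 sums were compared with the calf as a block (quasi-likelihood test of edgeR, p-values adjusted by Benjamini and Hochberg's method over all genes tested, threshold 0.05). Levels in these tests are counts per 1000000 (CPM) of the summed class. The high class had at least 2 thinned UMIs of the differentiation list and the low class none, which gave 279, 427 and 84 high cells. KRT6A, a keratin of activated epithelium, had 225, 1994 and 727 CPM in the high and 14.5, 67.4 and 17.2 CPM in the low classes of calves 1, 2 and 3, which gave 4.76 on the log2 scale, with a standard error of 0.233 (adjusted p = 2.46e-08); errors of log2 differences are given so throughout. KRT4, the suprabasal keratin, had 6061, 10876 and 2291 against 1067, 687 and 135 CPM, a log2 difference of 3.54 ± 0.256 (adjusted p = 1.43e-06). KRT17 had 908, 3477 and 1775 against 143, 443 and 224 CPM, a log2 difference of 2.88 ± 0.125 (adjusted p = 8.53e-09). These 3 keratins were higher in 3 of 3 calves, and the high and low classes did not overlap for any of them.

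KRT15 and KRT5 were lower in the high class, and KRT14 was not. KRT15 had 7373, 10622 and 4802 CPM in the high and 11455, 13981 and 9433 in the low classes, a log2 difference of -0.67 ± 0.124 (adjusted p = 0.0018). KRT5 had 3073, 5091 and 2359 against 5344, 5247 and 3877 CPM, a log2 difference of -0.52 ± 0.143 (adjusted p = 0.0177), and lost the call without calf 3 (-0.42, adjusted p = 0.0847). KRT14 had 1149, 3874 and 1558 against 1146, 1671 and 1169 CPM, a log2 difference of 0.54 ± 0.180 (adjusted p = 0.0415). The rise of KRT14 rested on calf 2: without it the difference was 0.22 (adjusted p = 0.571), without calf 3 it was 0.61 (adjusted p = 0.085), and under the gate without keratins 0.24 (adjusted p = 0.357). Under that gate KRT15 and KRT5 fell by 0.97 and 0.82 on the log2 scale and KRT4 rose by 4.24.

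All 6 members were called, against 26.4% of the 11868 genes tested, with a median log2 difference of 1.71 beside -0.06 over all genes. The total of 3131 called genes was 1833 without calf 2 and 2025 without calf 3. Of 13 other keratins tested 6 rose and 3 fell (median 0.43), 3 and 2 without calf 2; KRT6B rose by 4.34, KRT78 by 2.29 and KRT10 by 0.50, while the simple-epithelium keratins KRT18, KRT7 and KRT8 fell by 1.89, 1.61 and 1.03. Of the 11 genes that anchor basal cells to the matrix, 9 fell and 1 rose (median -0.83), with COL17A1, the hemidesmosome collagen, at -1.18. The high class had more UMIs per cell (medians 13004, 9528 and 12872.5 against 10127, 6650 and 7971) and a larger mitochondrial share (8.39%, 9.18% and 10.2% against 5.12%, 5.43% and 5.55%). Of 10 mitosis genes 9 rose in it (median 0.63), and 6, 10 and 4 without calves 1, 2 and 3. Of 10 immediate-early and heat-shock genes 7 fell (median -0.99), and 10, 7 and 5 in those fits. The fibroblast marker DCN fell by 2.62 (1 of 4 tested), and the glial marker S100B was at -0.92. Of 4 immune markers CD74 and BOLA-DRA were lower (-1.47 and -1.46) and TYROBP higher (2.35). The part of all these in the results was not tested.

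By genes of basal anchoring, KRT5 and KRT15 were higher and KRT4, KRT17 and KRT6A lower in cells with more of them. The classes were set at the upper and the lower tertile, within each calf, of the thinned UMIs of 11 genes of the hemidesmosome and basement membrane (among them COL17A1, ITGA6, ITGB4, LAMB3, LAMA3, DST, ITGA3, ITGB1, CD151 and COL7A1). Since many cells had equal counts, the classes were not of equal size: the upper held 1206, 2637 and 1983 cells and the lower 1665, 3271 and 3332, of 4316, 8114 and 7272. KRT6A had 15.9, 102 and 14.7 CPM in the upper and 55.5, 385 and 47.2 in the lower classes, a log2 difference of -1.81 ± 0.0777 (adjusted p = 2.18e-07). KRT17 had 118, 531 and 172 against 308, 939 and 344 CPM (-1.06 ± 0.0985, adjusted p = 1.42e-04). KRT4 had 1288, 949 and 126 against 2242, 2406 and 246 CPM (-1.04 ± 0.0955, adjusted p = 1.42e-04). All 3 were lower in 3 of 3 calves.

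KRT5 had 6116, 6412 and 4201 against 4434, 4498 and 3668 CPM, a log2 difference of 0.39 ± 0.0741 (adjusted p = 0.0124). KRT15 had 12971, 15608 and 10123 against 10036, 12396 and 8830 CPM (0.30 ± 0.0632, adjusted p = 0.0199). Both were higher in 3 of 3 calves, but both lost the call without calf 1 (0.36 and 0.27, adjusted p = 0.23 and 0.347), and KRT15 also without calf 2 (0.29, adjusted p = 0.0639). KRT14 differed by 0.16 ± 0.115 (adjusted p = 0.416), higher in calves 1 and 2 and lower in calf 3, and without calf 3 it was called at 0.38. The members called were 2 higher and 3 lower of 6, against 3.01% and 4.03% of the 11917 genes tested in those directions and 7.04% in either; the 839 genes called in all were 202 without calf 1 and 2396 without calf 2. Of 4 immune markers 3 were lower in the upper class (CORO1A at -1.39, BOLA-DRA at -1.13 and CD74 at -0.54, the last in 2 of 3 calves), none of 4 fibroblast and 5 endothelial markers was called, and the cells of the upper class had fewer UMIs (medians 8550, 6696 and 7320 against 11525, 6737 and 8486.5). Of 16 differentiation genes 14 were lower and 1 higher in the upper class (median -2.03), with A2ML1 at -4.24, SPINK5 at -4.05 and KRTDAP at -3.46. The anchoring classes thus also differed in the genes that set the differentiation classes, and are no separate axis. Of 10 mitosis genes 4 were lower, and 0, 10 and 2 without calves 1, 2 and 3. The part of all these in the anchoring results was not tested.

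Among cycling cells KRT14 and KRT17 were higher and KRT15 lower. The high class had at least 2 thinned UMIs of 10 mitosis genes (among them MKI67, TOP2A and CDK1) and held 747, 249 and 458 cells. KRT15 had 7571, 11057 and 6084 CPM in the high and 13199, 14643 and 10147 in the low classes, a log2 difference of -0.65 ± 0.0814 (adjusted p = 6.88e-04). KRT14 had 1306, 3681 and 1919 against 1167, 1891 and 1170 CPM (0.61 ± 0.135, adjusted p = 0.00952), with little difference in calf 1. The type I basal keratins therefore moved in opposite directions here, each in 3 of 3 calves and each under every omission of 1 calf.

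KRT17 had 296, 856 and 404 against 194, 735 and 259 CPM (0.49 ± 0.101, adjusted p = 0.00718), a call lost under the gate without keratins (0.26, adjusted p = 0.0964) and with thinning to 1000 UMIs (0.27, adjusted p = 0.104). KRT4 had 1170, 1048 and 193 against 1920, 1619 and 195 CPM (-0.46 ± 0.129, adjusted p = 0.0264), lost without calf 1 or calf 2 (-0.34 and -0.37) and with thinned counts summed (-0.27). KRT5 differed by -0.03 ± 0.122 (adjusted p = 0.866), higher in 1 calf and lower in 2. KRT6A differed by 0.37 ± 0.164 (adjusted p = 0.119), and without calf 2 it was called at 0.64. Of the members 2 were called higher and 2 lower, against 16.7% and 17.3% of 11956 genes and 34.0% in either direction, and the 4068 genes called were 2580 without calf 3. The cycling cells had more UMIs (medians 14060, 10152 and 12770.5 against 9905, 6723 and 7906) and a larger mitochondrial share (7.51%, 8.84% and 9.37% against 4.98%, 5.55% and 5.45%). Of 10 stress genes 8 fell and 1 rose in them (8, 6 and 5 fell without calves 1, 2 and 3), and lower were 1 of 4 fibroblast markers (DCN at -1.40) and 2 of 4 immune markers (BOLA-DRA at -1.66 and CD74 at -1.05), and the part of all these was not tested.

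Against the immediate-early and heat-shock genes that dissociation is known to raise (FOS, FOSB, JUN, JUNB, ATF3, EGR1, IER2, IER3, HSPA1A and DNAJB1), only KRT4 was called in the fit of all 3 calves. Classes were set at the tertiles as above. KRT4 had 885, 473 and 61.9 CPM in the upper and 2103, 3075 and 341 in the lower classes, a log2 difference of -2.14 ± 0.279 (adjusted p = 0.0102), and lost the call without calf 3 (-1.98, adjusted p = 0.108). KRT6A had 22.6, 34.7 and 18.5 against 14.1, 500 and 42.0 CPM, and KRT14 had 1372, 768 and 1133 against 1027, 3192 and 1372 CPM, with the large differences in calf 2 alone. KRT17 had 302, 240 and 373 against 118, 1245 and 246 CPM, so that it was higher with stress genes in calves 1 and 3 and lower in calf 2; the difference was -0.05 ± 0.686 in all calves (adjusted p = 0.97) and 0.97 without calf 2 (adjusted p = 0.0273). Without calf 1, KRT6A, KRT14 and KRT5 were called lower (-2.57, -1.18 and -0.37). KRT15 differed by 0.03 ± 0.119 and KRT5 by -0.20 ± 0.173 in all calves. The 1 member called of 6 compares with 14.7% of 11723 genes called in either direction, 6.45% lower and 8.24% higher. This is near the share over all genes. The 1722 genes called in both directions were 3312, 551 and 95 without calves 1, 2 and 3. Of 16 differentiation genes 11 were lower and 1 higher in the upper class, with 15, 8 and 1 lower without calves 1, 2 and 3. The upper class, of 1286, 2446 and 2259 cells against 1489, 2706 and 2586, also had a smaller mitochondrial share (4.96%, 4.93% and 5.26% against 5.88%, 7.46% and 6.96%) and more of the fibroblast marker DCN (1.13, 1 of 4 tested) and the glial marker S100B (1.24), and their part was not tested.

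Cells with KRT6A carried more of KRT17, KRT14 and differentiation genes. They had at least 1 thinned KRT6A UMI and numbered 130, 730 and 265. KRT17 had 1718, 3301 and 1007 CPM in these and 170, 382 and 239 in the other gated cells, a log2 difference of 2.85 ± 0.164 (adjusted p = 4.38e-10). KRT14 had 1988, 5349 and 1767 against 1160, 1519 and 1204 CPM (1.05 ± 0.155, adjusted p = 1.48e-04). Both were higher in 3 of 3 calves, with the widest gap for KRT14 in calf 2, and its difference was 0.65 without that calf; DESeq2 did not call KRT14 (adjusted p = 0.076).

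KRT4 had 1520, 3249 and 536 against 1651, 1332 and 174 CPM (0.94 ± 0.199, adjusted p = 0.00376), higher in 2 of 3 calves; the difference was 1.48 without calf 1 and 0.58 without calf 3, and DESeq2 did not call it (adjusted p = 0.376). KRT15 had 7959, 11337 and 7155 against 11375, 14478 and 9477 CPM (-0.42 ± 0.0812, adjusted p = 0.00164), and was not called without calf 2 (-0.47, adjusted p = 0.246). KRT5 differed by 0.03 ± 0.116 (adjusted p = 0.913), and was higher in calf 2 and lower in the others. Of the 5 members tested 3 were called higher and 1 lower, against 6.89% and 5.22% of 12230 genes, and the median of the 5 was 0.94 beside -0.04 over all genes. The 1482 genes called were 516 without calf 2 and 827 without calf 3.

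Of 18 differentiation genes tested, 16 rose with KRT6A and none fell (median 2.45; 14 to 17 rose in the fits that left out 1 calf), among them the crosslinking enzymes TGM3 and TGM1 at 3.50 and 3.49 and the connexin GJA1 at 3.13. All 10 mitosis genes rose (median 0.80; 8 to 10), with MKI67 at 0.99. Of 12 desmosome genes 5 rose and none fell, led by DSG1 at 3.07 and DSC2 at 1.71, and of 17 regulators of stratified epithelium 4 rose, which were GRHL3 (2.10), ZNF750 (1.37), OVOL1 (1.21) and GRHL1 (1.12). None of 10 stress genes was called in the fit of all calves, and 7 fell without calf 1. Of 11 anchoring genes 3 fell (COL17A1 at -0.40) and none was called without calf 2. Among 12 other keratins KRT6B had the largest rise at 4.23, or 2.65 without calf 2, and was the largest rise of all named genes, followed by BPIFA2C at 3.78 and GJB2, another connexin, at 3.61. The largest falls were IFI27, AOX1, TNNI2, BASP1 and FBLN2, between -0.80 and -0.75. The marker lists of other cell types had 1 of 4 fibroblast genes (DCN at -0.69) and 2 of 4 immune genes lower (CD74 and BOLA-DRA, at 4 to 16 CPM), whose part was not tested.

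Cells with KRT4 carried more KRT15 and more differentiation genes, and fewer stress genes. The cells of the class had at least 1 thinned KRT4 UMI and numbered 2517, 3715 and 1236. KRT15 had 12274, 15653 and 10947 CPM in these and 9391, 12228 and 8845 in the other cells, a log2 difference of 0.35 ± 0.0211 (adjusted p = 6.65e-06), higher in 3 of 3 calves and called without each calf. KRT6A had 42.3, 306 and 33.9 against 17.0, 130 and 30.4 CPM (0.94 ± 0.168, adjusted p = 0.00407), though not by DESeq2 (adjusted p = 0.102). KRT5 differed by 0.12 ± 0.0302 (adjusted p = 0.0233), a call lost without calf 1 or 3 (both 0.09), and in several other settings.

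KRT14 differed by -0.13 ± 0.0809 (adjusted p = 0.285) and KRT17 by 0.15 ± 0.0997 (adjusted p = 0.33), each with calves on both sides of 0. Without calf 1 KRT14 was called at -0.29, and without calf 3 KRT17 was called at 0.34. Of the 5 members tested 3 were called higher and none lower, against 10.4% and 9.84% of 12442 genes, and the median of the 5 was 0.15 beside -0.01 over all genes. Under the gate without keratins 2 of the 5 were called higher and none lower. The 2517 genes called were 1518 without calf 1. The cells of the KRT4 class had a median of 3, 2 and 1 KRT4 UMIs per 2000 in calves 1, 2 and 3. Of all thinned cells 26.4%, 28.2% and 14.0% had 1 or 2, and 7.79%, 4.50% and 0.619% at least 10.

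With KRT4, 16 of 17 differentiation genes rose and 1 fell (median 2.07), with the protease inhibitor SPINK5 at 4.46, A2ML1 at 4.22 and KRTDAP at 3.47, and of 12 desmosome genes 8 rose and 1 fell. Of 17 regulators 8 rose, GRHL3 at 2.25 and ZNF750 at 2.12, and 1 fell, and of 11 anchoring genes 2 rose and 4 fell. No mitosis gene of 10 was called by edgeR; 4 fell without calf 3. Of 10 stress genes 8 fell (median -0.39), FOS by 0.50 and IER3 by 0.49. Among 13 other keratins KRT8, KRT18 and KRT7 fell by 1.28, 1.27 and 0.59, and KRT78 and KRT6B rose by 1.09 each. Other large rises were WFDC18 at 3.22, LYPD2 at 1.94 and the calprotectin chain S100A8 at 1.93. The largest falls were RGS4 at -1.59, PLAC8 at -1.43, the chemokine CXCL3 at -1.27, DCN at -1.14 and IFI27 at -1.11. Markers of other cell types were lower in 1 of 4 fibroblast, 2 of 4 immune and 3 of 5 endothelial genes, the last at 0 to 3 CPM. The cells with KRT4 had more UMIs (medians 11205, 7041 and 8521 against 9617, 6568 and 7932). Their mitochondrial share was larger (5.84%, 5.97% and 6.79% against 4.80%, 5.36% and 5.44%). The part of all these was not tested.

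Cells with KRT17 carried more KRT6A and KRT14 and less KRT15. They numbered 785, 1951 and 1672. KRT6A had 107, 658 and 81.6 CPM in these and 14.4, 39.6 and 14.4 in the other cells, a log2 difference of 3.19 ± 0.243 (adjusted p = 1.88e-04). KRT14 had 1870, 4006 and 1714 against 1009, 1120 and 1048 CPM (1.14 ± 0.172, adjusted p = 0.00557). Both were higher in 3 of 3 calves and were called without each calf. In the cells without KRT17, KRT14 was at nearly the same level in all calves, and calf 2 stood apart only in the cells with it.

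KRT15 had 9096, 12606 and 7864 against 11643, 14454 and 9752 CPM (-0.29 ± 0.0510, adjusted p = 0.0101), a call lost without calf 1 or calf 3 (-0.24 and -0.28, adjusted p = 0.131 and 0.0814). KRT5 differed by 0.15 ± 0.113 (adjusted p = 0.429) and KRT4 by -0.04 ± 0.118 (adjusted p = 0.871), each higher in 1 calf and lower in 2, and without calf 2 KRT4 was called at -0.27. Of the 5 members tested 2 were called higher and 1 lower, against 7.28% and 4.81% of 12356 genes, with a median of 0.15 beside -0.02 over all genes. The 1493 genes called were 856 without calf 1 and 417 without calf 3.

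With KRT17, 15 of 17 differentiation genes rose and none fell (median 1.25), TGM3 by 2.43 and TGM1 by 2.16, and 4 of 12 desmosome genes and 4 of 17 regulators rose, led by DSG1 at 1.77 and OVOL1 at 1.18. All 10 mitosis genes rose (median 0.43), but none was called without calf 3. Of 10 stress genes 1 rose, which was IER3, and 9 rose without calf 2. Other large rises were FABP4, a fatty acid binding protein, at 3.00, GJA1 at 1.95 and SFN at 1.36. The largest falls were AOX1, CCDC3, IFI6, HPGD and SOX4, between -0.66 and -0.52. Among other keratins KRT6B rose by 3.11 (1.64 without calf 2) and KRT42 by 0.94, while KRT19 and KRT7 fell by 0.37 and 0.30. The fibroblast marker DCN fell by 0.43 and 2 of 4 immune markers were lower. The cells with KRT17 had more UMIs (medians 11227, 7685 and 8400.5 against 10274, 6584 and 7924). Their mitochondrial share was larger (5.98%, 6.42% and 6.15% against 5.23%, 5.45% and 5.54%). The part of all these was not tested.

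Over all 7 comparisons, 26 of 39 tests of a member were called, against 7.04% (anchoring) to 34.0% (cycling) of all genes tested in a comparison. Calls of KRT5, KRT14 and KRT15, whose sum set the gate, are among the 26. Under the gate without keratins 23 of the 26 calls were kept. The 39 tests were not separate, since all classes came from the same gated cells. KRT6A, KRT4 and KRT17 were also tested in each other's classes, so that the same pair entered from both sides. Each of the 26 calls was lost when the calf was not kept as a block, where the lowest adjusted p among them was 0.0519.

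**Figure D5:**
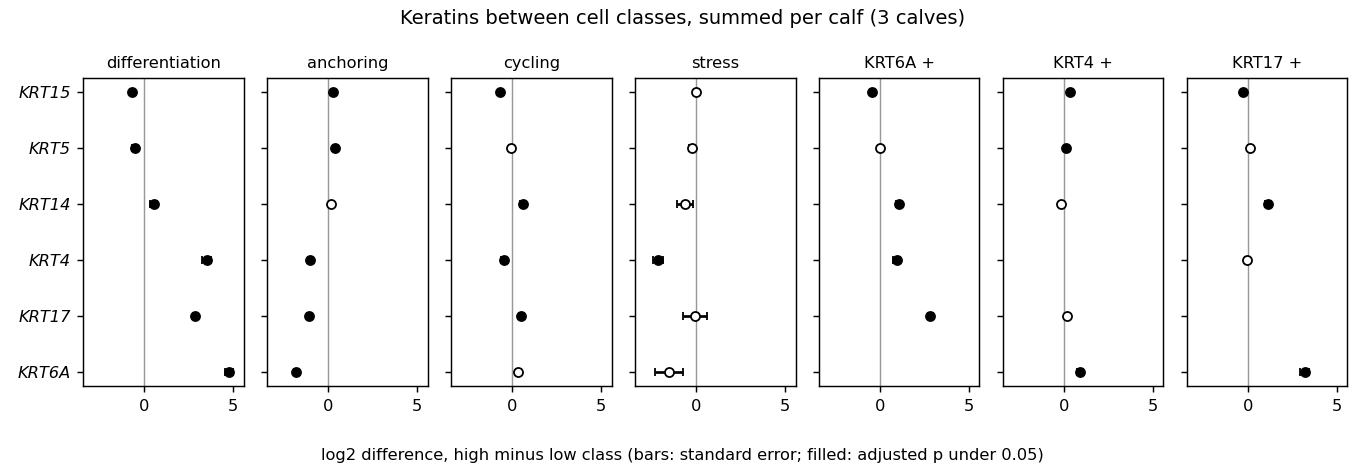
Log2 difference of each keratin between the high and the low class of 7 comparisons (edgeR, 3 calves, calf as a block); bars are standard errors, filled points have an adjusted p under 0.05, and the keratin that defines a class is not shown in it. KRT4, KRT17 and KRT6A lie far to the right for differentiation (3.54, 2.88 and 4.76) and to the left for anchoring.

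The genes with levels most like each keratin over gated cells were found by Pearson correlation of log-normalized counts, averaged over the 3 calves, among 6893 genes. The counts were not thinned, so that cells of unequal depth entered, and the cells of a calf share a library. The values are a description. KRT5 was most like KRT15 (0.517), ENSBTAG00000054234 (0.486), COL17A1 (0.452), KRT14 (0.377) and IGFBP2 (0.371). KRT15 was most like KRT5, COL17A1 (0.455), IGFBP2 (0.408), the ribosomal RPLP1 (0.362) and ENSBTAG00000054234 (0.321). KRT14 was most like KRT5, IGFBP6 (0.341), ENSBTAG00000054234 (0.327), S100A11 (0.314) and the glycolytic ENO1 (0.311). COL17A1 and IGFBP2 were thus among the 5 of KRT5 and of KRT15, and not among those of KRT14.

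KRT4 was most like S100A12 (0.546), COX8B (0.483), BPIFA2A (0.443), S100A8 (0.425) and LYPD2 (0.418), and no keratin was among its 5. Among the 5 genes most like KRT6A were KRT17 (0.338), SFN (0.291), LYPD3 (0.265) and S100A8 (0.248). Among the 5 most like KRT17 were SFN (0.365), KRT6A (0.338), KRT14 (0.308) and FABP5 (0.268).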

How the data were processed

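Rumen cells of 3 newborn calves were profiled with the Chromium Single Cell 3′ v3 kit. The authors deposited raw UMI counts per gene and barcode, not normalized and before filters on genes per cell, made with Cell Ranger 3.1.0 per the labels on the bovine assembly ARS-UCD1.2 per the methods. The libraries held 7529, 12043 and 11656 barcodes with 82263092, 89803289 and 106145091 UMIs. The 3 samples are separate calves, and each calf was counted as 1 replicate.

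Barcodes with 500 to 4000 genes, at most 50000 UMIs and at most 40% of UMIs from 13 mitochondrial genes were kept (4886, 10654 and 10480). Scanpy 1.11.5's Scrublet score, ranked, removed 0.8% per 1000 barcodes as doublets (191, 908 and 879), since its automatic threshold marked only 0, 0 and 2. Without doublet, UMI and mitochondrial limits the rule gave 4683, 9190 and 8173 cells. Intervals are exact Clopper-Pearson at 95%, and levels are counts summed per calf.

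Class sums were tested with edgeR 4.0.16 (R 4.3.3; TMM, filterByExpr, glmQLFit and glmQLFTest, calf as block); DESeq2 1.42.0 was an alternative. The pairing comes from the calf, since both classes of a pair are cells of the same animal. The script was tested on simulated data. Genes of a list that sets a class were left out of that comparison. The study's test over cells was not used, because cells are not replicates.

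The members and lists were chosen with earlier results of these data known. The text names the 6 members, other keratins detected in at least 1% of cells, up to 4 called genes a list, the 5 largest rises and falls of at least 50 CPM in the higher class with the same direction in 3 calves for the KRT6A, KRT4 and KRT17 classes, and the 5 genes most like each member among genes in at least 5% of cells of each calf. Symbols came from the files, and all 6 matched RefSeq's gene table, used for names and neighbours only. A few genes that the rules or lists take in are not reported here.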

Additional observations from a re-analysis of the deposited data

Results flagged for a closer look

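Keratin UMIs were also present in barcodes that the filters left out. In barcodes with more than 4000 genes that passed the keratin gate, the mean level over the 3 calves was 83.5 UMIs per 10000 for KRT15, 45.5 for KRT5, 22.6 for KRT14, 22.4 for KRT4, 10.85 for KRT17 and 4.77 for KRT6A. There were 1446 such barcodes.

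In the 3392 barcodes with fewer than 500 genes, the mean level was 21.6 UMIs per 10000 for KRT15, 10.2 for KRT5, 6.31 for KRT4, 3.89 for KRT14, 3.19 for KRT17 and 1.41 for KRT6A. With 3 samples of 1 group, no test for an outlying calf and no comparison of groups was made.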

How the results depend on the processing

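The mean levels of the 6 keratins moved by less than the SD between calves in all 54 recomputations. Of the member tests under other settings, 352 kept direction and call, 53 kept the direction and lost the call, 16 gained one and 23 changed sign; DESeq2 kept 21 of the 26 calls, and the fits without calves 1, 2 and 3 kept 21, 22 and 21. Without the calf as a block, edgeR called 166 genes for differentiation, 493 for cycling, 5 for stress and 0 for anchoring, KRT6A, KRT4 and KRT17 (184, 535, 325 and 201 genes at an unadjusted p under 0.05, where DESeq2 with the block called 453, 734, 1192 and 668). The cause of each change below was not tested, except where cells of unequal depth enter without thinning.

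The number of genes called moved by over 1.5 times in many settings, those without the block included. It moved in 7 settings and stayed within that limit in 5 for KRT17, and in 6 and 5 for anchoring. For KRT6A these counts were 5 and 7, for KRT4 4 and 8, for differentiation and for stress 4 and 7, and for cycling 3 and 8. Summing thinned counts gave 1503 for differentiation, 2265 for cycling, 402 for KRT6A, 1457 for KRT4 and 498 for KRT17. Without a filter on low counts it was 1732 for anchoring and 2572 for KRT17, without doublet removal 1465 for anchoring, and with thinning to 1000 UMIs 892 for KRT17. Leaving out 1 calf gave 1833 to 3534 for differentiation, 202 to 2396 for anchoring, 2580 to 3300 for cycling, 95 to 3312 for stress, 516 to 1969 for KRT6A, 1518 to 2161 for KRT4 and 417 to 1480 for KRT17.

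Depth set the shares, most for the sparse KRT6A and KRT17, and the 5, 48 and 12 thinned background barcodes of calf 1 leave its background shares imprecise. With thinning to 1000 and to 4000 UMIs and with none, the mean share was 94.97%, 99.5% and 99.4% for KRT5, 43.7%, 70.2% and 78.1% for KRT14, 99.0%, 99.8% and 99.9% for KRT15, and 14.6%, 30.0% and 41.0% for KRT17; for KRT6A it was 8.84% at 4000 and 16.1% with none, and for KRT4 63.1% with none. KRT5 and KRT15 were at 98.1% and 99.3% with a gate of 5 per 10000, and at 97.8% and 98.8% under the gate without keratins.

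Without thinning the mean rank correlations were 0.56 for KRT5 with KRT14, 0.73 with KRT15, 0.29 with KRT4, 0.15 with KRT6A and 0.23 with KRT17. They were 0.25, 0.082, 0.18 and 0.33 for KRT14 with KRT15, KRT4, KRT6A and KRT17, then 0.44, 0.057 and 0.061 for KRT15 with KRT4, KRT6A and KRT17, and 0.067 and 0.022 for KRT4 with KRT6A and KRT17. KRT5 with KRT15 gave 0.28 at 1000 and 0.42 at 4000 UMIs, and KRT5 with KRT4 0.032 and 0.12; under the gate without keratins KRT5 with KRT4 gave 0.031 and KRT14 with KRT4 -0.064.

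The log2 differences that changed sign were uncalled except KRT17 for stress without calf 2. Leaving out 1 calf gave -0.24 to 0.11 for KRT5 for cycling (0.041 without calf 3), -0.37 to 0.036 for KRT5, -1.18 to 0.063 for KRT14, -0.026 to 0.053 for KRT15 and -0.90 to 0.97 for KRT17 for stress, -0.23 to 0.18 for KRT5 in the KRT6A classes, -0.010 to 0.34 for KRT17 in the KRT4 classes, and -0.071 to 0.27 for KRT5 and -0.27 to 0.086 for KRT4 in the KRT17 classes (0.077 without calf 1). Without the block KRT5 for cycling gave 0.012 and KRT4 in the KRT17 classes 0.074. Thinned sums gave -0.030 for KRT15 and 0.21 for KRT17 for stress, and thinning to 1000 UMIs gave 0.0033 for the latter. KRT5 in the KRT6A classes gave -0.011 without the filter, -0.038 with thinning to 1000 UMIs, -0.050 under the gate without keratins and -0.29 with a class limit of 2 UMIs. KRT4 in the KRT17 classes gave 0.076, 0.036 and 0.010 in the last 3 of these settings.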
